A study of Homo sapiens with 6 samples.

Results

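The replication-dependent histone genes make the bulk of the histone protein that packages newly copied DNA. They were taken here as every gene symbol of the form HIST1H to HIST4H in the deposited lists, which gave 63 genes of 20979 symbols listed in at least 1 library. By class these were 6 linker histone genes (H1), 16 H2A genes, 18 H2B genes, 12 H3 genes and 11 H4 genes. By location, 47 belonged to the HIST1 cluster on chromosome 6, 13 to the HIST2 genes and 3 to the HIST3 genes on chromosome 1, and no HIST4 symbol was found. HIST2H2BC and HIST2H2BA are annotated as transcribed pseudogenes and were kept because the symbol rule includes them.

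The libraries came from A172, a human glioblastoma cell line, 1 day after lipid transfection of a short RNA. One group had received the miR-324-5p duplex (5p duplex), another the miR-324-3p.1 duplex (3p.1 duplex), and the control group a control microRNA labelled miNC. Each group held 2 libraries, and polyadenylated RNA had been enriched with oligo-dT before stranded sequencing. Levels are in TPM, which divides the reads of a gene by its transcript length and scales each library to a common total, so the number of reads behind a value is unknown and its precision is given only by the 2 libraries. Which strand of a duplex acted in the cells was not measured, and the labels do not state whether replicates are separate cultures. A p-value here therefore reflects no more than the variation among these libraries, which may be technical.

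DNA winds around a core made of H2A, H2B, H3 and H4, and H1 sits on the linker DNA between cores. The replication-dependent genes are transcribed mainly in S phase, when DNA is copied, under the activator NPAT. Their mRNAs are the known exception to polyadenylation: instead of a poly(A) tail most end a few bases after a short stem-loop, which is bound by SLBP and cut with the help of the U7 snRNP. Some of these genes also give longer transcripts that carry a poly(A) tail, and oligo-dT captures RNA with such a tail. The levels below are therefore levels after oligo-dT selection and not total histone mRNA.

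The stem-loop was sought in the transcripts of GENCODE 29 on GRCh38, because it marks where the tailless form of each mRNA ends. Of the 34 members with an annotated 3′UTR, 30 held a match to the stem-loop pattern there, against 36 of 19469 genes overall (0.185%). The forms below are from members described in the results; the paired bases of the stem are in capitals, the loop between them and 5 flanking bases on each side are in lower case, and the coordinates are those of the stem and loop.
HIST2H2AA3 (chr1:149842223-149842238, minus strand): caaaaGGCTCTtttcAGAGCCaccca
HIST1H2AC (chr6:26124669-26124684, plus strand): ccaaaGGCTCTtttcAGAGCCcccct
HIST1H2BD (chr6:26158587-26158602, plus strand): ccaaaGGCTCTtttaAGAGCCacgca
HIST2H2BE (chr1:149886188-149886203, minus strand): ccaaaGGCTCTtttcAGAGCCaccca
HIST1H3E (chr6:26225596-26225611, plus strand): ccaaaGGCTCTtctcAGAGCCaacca
HIST1H4H (chr6:26285131-26285146, minus strand): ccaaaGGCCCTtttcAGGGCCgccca
HIST2H4A (chr1:149833032-149833047, plus strand): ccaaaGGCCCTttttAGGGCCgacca
The form of HIST2H2BE was the common one, with the same stem and loop in 6 H2A genes, 8 H2B genes (itself included) and 3 H3 genes. HIST1H2BD shared its stem and loop with 2 other H2B genes and 1 H3 gene. All 7 H4 genes with a match carried a stem of their own class, 4 with the loop of HIST1H4H and 3 with the loop of HIST2H4A.

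The members differed widely in level. Averaged over the 6 libraries, 12 of the 63 genes reached 10 TPM, 33 reached the minimum of 1 TPM used for testing, and 30 stayed below it. At the edge of that minimum stood HIST1H4E (0.888 TPM) and HIST1H3B (0.95 TPM) just below it, and HIST3H2BB (1.16 TPM) and HIST1H3D (1.31 TPM) just above it. Each library listed 52 to 58 of the members, and 44 members were listed in all 6. The genes of the HIST1 cluster held 87.3% of the histone TPM, those of HIST2 12.2% and those of HIST3 0.418%.

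H2B genes dominated. They held 65.7% of the histone TPM, H1 genes 17.6%, H2A genes 11.1%, H4 genes 4.79% and H3 genes 0.917%. Of the H2B genes 15 of 18 were tested, and of the H2A genes 10 of 16. Only 4 of 12 H3 genes, 3 of 11 H4 genes and 1 of 6 H1 genes were. These shares describe oligo-dT-selected RNA on a per-length scale and do not give the proportions of the proteins. They also depend on the gene models, since TPM divides by the model's length: HIST1H2BK is a model of 381 nt of coding sequence here, and an annotation with longer ends could change its level, these shares and the ranks of the members.

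A pair of genes accounted for most of the signal. HIST1H2BK, which encodes an H2B protein (chr6:27146418-27146798, minus strand), averaged 634 TPM over the 6 libraries, 50.9% of the histone TPM. HIST1H1C, which encodes a linker histone (chr6:26055787-26056428, minus strand), averaged 217.5 TPM, 17.4% of the histone TPM and 99.2% of the H1 sum, since HIST1H1D (0.703 TPM) and HIST1H1E (0.54 TPM) came next. The following H2B genes were HIST1H2BD at 65.0 TPM and HIST2H2BE at 37.7 TPM. The leading H2A genes were HIST2H2AA3 and HIST2H2AA4 at 36.6 TPM each and HIST1H2AC at 36.2 TPM. HIST1H4H led the H4 genes at 33.1 TPM, ahead of HIST2H4A and HIST2H4B at 11.5 TPM each, and no H3 gene exceeded the 3.14 TPM of HIST1H3E.

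**Figure D1:**
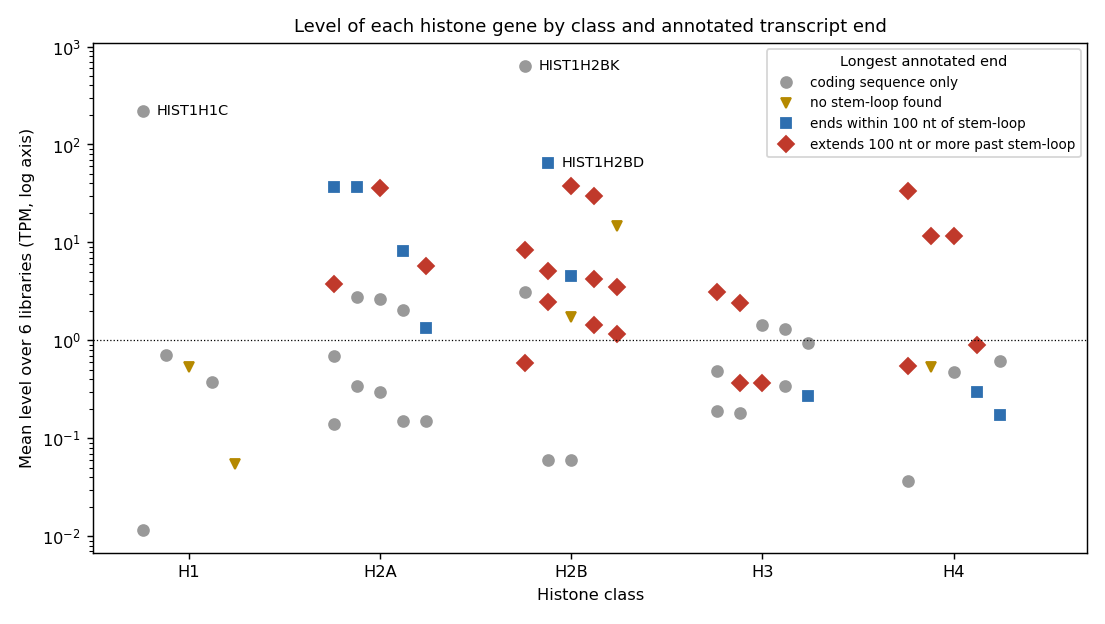
Mean level of each of the 63 histone genes over the 6 libraries (vertical log axis, TPM), by class. Marker shape and colour give how far annotated transcripts with a stem-loop run beyond it at most. Other markers show models that end at the stop codon or in which no stem-loop was found. The dotted line is the 1 TPM minimum. HIST1H2BK (634 TPM) and HIST1H1C (217.5 TPM) stand above all other genes, and both have gene models that end at the stop codon.

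The annotated ends of the gene models were set beside these levels. In 22 members the longest transcript with a stem-loop ran 100 nt or more past it, and 17 of these reached 1 TPM (median 3.65 TPM, highest 37.7 TPM). In 9 members such a transcript ended within 100 nt of it, and 6 reached 1 TPM (median 4.59 TPM, highest 65.0 TPM for HIST1H2BD, which also has a transcript with a 3′UTR of 384 nt and no stem-loop). In 27 members the model ended at the stop codon, and 8 reached 1 TPM (median 0.477 TPM). HIST1H2BK and HIST1H1C were in this last set, so the annotation used here shows neither a stem-loop nor a longer end for the most abundant members, and the annotation the authors counted against is not given in the sources used here. In the remaining 5 members no match was found; HIST1H2BJ (14.8 TPM) was the most abundant of them.

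Sequence shared between members limits how finely they can be read. Values were equal in all 6 libraries for 3 pairs of copies: HIST2H2AA3 with HIST2H2AA4, HIST2H3A with HIST2H3C, and HIST2H4A with HIST2H4B. Reads of 100 bases cannot separate these copies over most of their length, and each pair is best taken as a single measurement. In all, 25 members shared at least 1 run of 100 bases with another gene, 14 shared 50% or more of such runs, and 38 shared none. HIST1H1C, HIST1H2AC, HIST1H2BD and HIST1H4H had no such overlap, and HIST1H2BK shared 28.4% of its runs with H2BFS. HIST2H3A and HIST2H3C ranged from 0.07 to 0.41 TPM with the 5p duplex, from 0.33 to 0.41 TPM with the 3p.1 duplex and from 0.08 to 0.9 TPM in control.

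Several facts of the whole series bear on the results. The 6 libraries listed 18660 to 19070 symbols, and 86 genes for RNAs without a poly(A) tail summed to 962 and 628 TPM with the 5p duplex, 1079.7 and 1082 TPM with the 3p.1 duplex and 620 and 867 TPM in control, a sum that varied between replicates and was highest with the 3p.1 duplex. The interferon-induced gene IFI6 was at 9.3 to 14.1 TPM in the 4 duplex libraries and at 80.6 and 220 TPM in control, which sets the control libraries apart. Of 10 markers fixed for A172 9 were listed, and they summed to 6989 and 7245 TPM with the 5p duplex, 6496 and 7115 TPM with the 3p.1 duplex and 6185 and 7059 TPM in control. Most of this came from the mesenchymal gene VIM (4788 to 5910 TPM) and from CD44 (708 to 929 TPM), whereas the matrix genes FN1 (10.1 to 16.6 TPM) and TNC (0.14 to 0.46 TPM) were low, the glial gene GFAP stayed at or under 0.25 TPM and S100B was not listed. Of 14 markers of other cell types 11 were listed, with the T cell gene CD3E and the red cell gene HBB among those that were not, and the list summed to 926 and 1043 TPM with the 5p duplex, 1203 and 1366 TPM with the 3p.1 duplex and 1224 and 1209 TPM in control, nearly all of it from KRT8 and KRT18. The leukocyte gene PTPRC (5.52 to 7.48 TPM) and the neuronal gene SYT1 (10.1 to 12.1 TPM) were present at low levels in every library. The part of these differences in the histone levels was not tested.

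The summed histone level was lowest with the 5p duplex and intermediate with the 3p.1 duplex. The 63 genes together reached 1051 and 999.8 TPM in the 5p duplex libraries, 1332 and 1234 TPM in the 3p.1 duplex libraries and 1445 and 1418 TPM in the control libraries. No 2 groups overlapped, but HIST1H2BK alone held 50.9% of the histone TPM. With HIST1H2BK left out, the sums of the 3p.1 duplex and control overlapped, while those of the 5p duplex stayed below both. By geometric means, the 5p duplex was at 0.716 times control and the 3p.1 duplex at 0.896 times control. The 5p duplex was at 0.800 times the 3p.1 duplex. These sums were given no test, since with 2 libraries a group a two-sided exact permutation test cannot go below p = 0.333, and both duplexes are compared with the same control libraries. In bulk RNA after oligo-dT selection, fewer cells in S phase, less histone mRNA per cell and a change in the part that oligo-dT captured cannot be told apart.

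The order of the sums was the same for H2B and H2A. H2B genes summed to 672 and 674 TPM with the 5p duplex, 826 and 845 TPM with the 3p.1 duplex and 924 and 969 TPM in control. H2A genes summed to 102 and 124 TPM with the 5p duplex, 149 and 131 TPM with the 3p.1 duplex and 167 and 153 TPM in control. In neither class did any groups overlap. With HIST1H2BK left out of the H2B sums, however, the 3p.1 duplex and control overlapped, and the 5p duplex stayed below both. The geometric mean of the 5p duplex was 0.711 times (H2B) and 0.707 times (H2A) that of control. H4 genes summed to 35.4 and 50.5 TPM with the 5p duplex, 51.6 and 74.3 TPM with the 3p.1 duplex and 55.7 and 90.9 TPM in control; the 5p duplex lay below both other groups, while the 3p.1 duplex and control overlapped. The groups overlapped for H1 and H3. H1 genes summed to 232 and 139 TPM with the 5p duplex, 292 and 171.6 TPM with the 3p.1 duplex and 289 and 191 TPM in control. H3 genes summed to 8.57 and 12.3 TPM with the 5p duplex, 11.9 and 12.2 TPM with the 3p.1 duplex and 10.1 and 13.6 TPM in control.

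**Figure D2:**
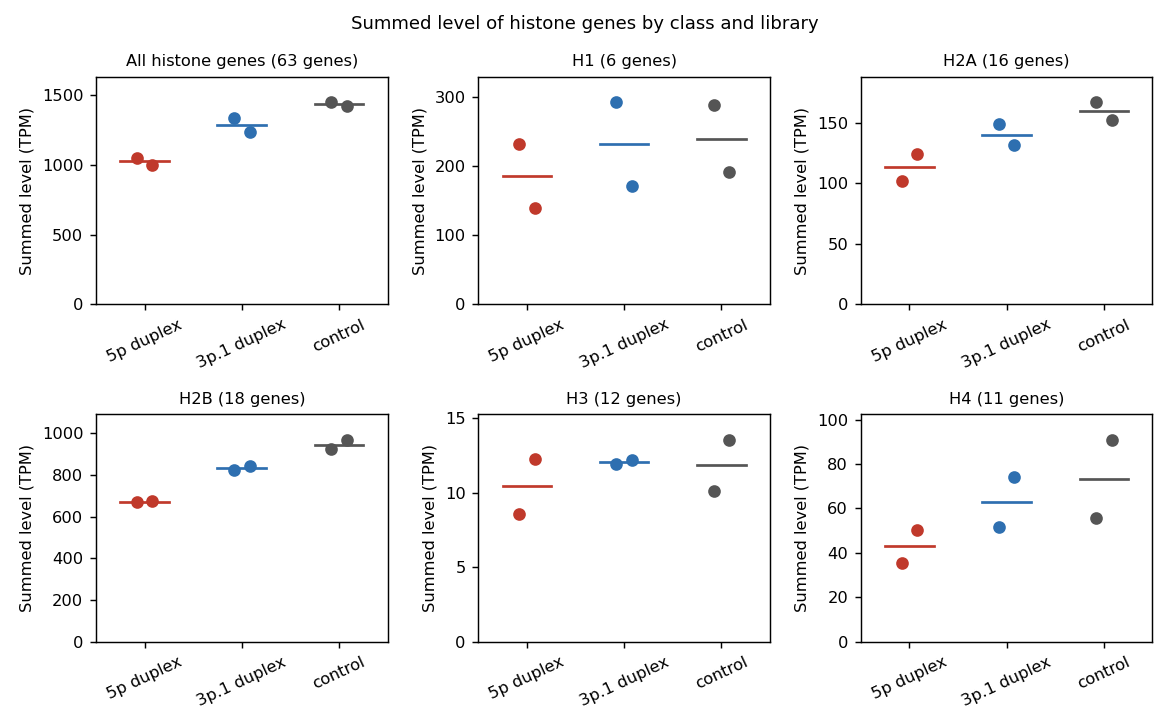
Summed level of all 63 histone genes and of each class (vertical axis, TPM, starting at 0) in each library (points) of the 5p duplex, 3p.1 duplex and control groups; horizontal lines are means of 2 libraries. For all genes, H2A and H2B the 3 groups do not overlap and the 5p duplex is lowest, and for H1 and H3 they overlap. With HIST1H2BK left out (not drawn), the 3p.1 duplex and control overlap for all genes and for H2B.

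The first comparison set the 5p duplex against control and asked whether any histone mRNA differed beyond the replicate spread. None of the 33 tested members passed the adjusted threshold of 0.05 in the limma fit over 13400 genes, in which 0.463% of all genes did. Before adjustment, 10 of the 33 members (30.3%) had a p under 0.05 and a lower level with the 5p duplex, as did 7.3% of all genes. None had such a p and a higher level, against 1.86% of all genes. The 2 libraries of each group did not overlap in 19 members (57.6%), all lower with the 5p duplex, against 22.1% of all genes that were lower in this way. The log2 fold change was below 0 in 30 of 33 members (90.9%), against 57.3% of genes, and its median was -0.38 for the members and -0.030 for all genes. With each pair of identical copies counted once, 8 of 31 had an unadjusted p under 0.05, 17 did not overlap and 28 were below 0. HIST1H2AI and HIST3H2BB, at means of 0.6 and 0.58 TPM with the 5p duplex, passed the 1 TPM minimum through the groups where they were higher, so the counts over tested members describe them and support nothing. Counting all 63 genes by their means, 48 were lower with the 5p duplex, 11 were higher and 4 were equal. Since control replicate 2 stood apart for IFI6, the fit was also made without it: 26 of the 33 members were then below 0, with a median of -0.39, and none was called (smallest adjusted p of a member 0.215, limma).

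HIST1H2BK had the smallest standard error of the 33 tested members. It was at 507 and 523 TPM with the 5p duplex, 651 and 645 TPM with the 3p.1 duplex and 729 and 753 TPM in control. All 3 groups were separate, with the replicates of each close together. Its log2 fold change for the 5p duplex over control was -0.52 (SE 0.0796), the smallest adjusted p of any member in this comparison but above the threshold (limma, adjusted p = 0.0653). HIST1H2BD, the next H2B gene, was at 70.6 and 51.8 TPM with the 5p duplex, 65.1 and 58.4 TPM with the 3p.1 duplex and 76.9 and 67.1 TPM in control, and the 5p duplex and control overlapped (log2 -0.25, SE 0.162). HIST2H2BE did not overlap between them, at 35.0 and 30.8 TPM with the 5p duplex, 38.0 and 35.8 TPM with the 3p.1 duplex and 47.5 and 38.9 TPM in control (log2 -0.38, limma adjusted p = 0.418).

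The largest log2 fold changes of this comparison came from the H2B gene HIST1H2BO and the H4 copies HIST2H4A and HIST2H4B. HIST1H2BO was at 1.60 and 0.78 TPM with the 5p duplex, 4.32 and 4.41 TPM with the 3p.1 duplex and 2.97 and 4.73 TPM in control (log2 -1.15 for the 5p duplex over control, SE 0.249, limma adjusted p = 0.154). Its 5p duplex libraries lay below all 4 others. HIST2H4A and HIST2H4B, identical in value, were at 5.93 and 9.51 TPM with the 5p duplex, 7.64 and 12.6 TPM with the 3p.1 duplex and 13.8 and 19.7 TPM in control (log2 -1.03, SE 0.3, limma adjusted p = 0.315). Both duplexes lay below control for this pair of H4 copies, and the duplexes overlapped each other. HIST1H2AI, an H2A gene picked out after its values were seen and, as said, below the minimum with the 5p duplex, was at 0.48 and 0.72 TPM with the 5p duplex, 1.48 and 1.34 TPM with the 3p.1 duplex and 1.99 and 2.08 TPM in control (log2 -0.93, SE 0.158, limma adjusted p = 0.0864). Its groups did not overlap, but a gene picked by its values and counted in the H2A sum adds no support to the class sums. HIST1H2AI also shares 57.7% of its 100-base runs with HIST1H2AJ.

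Among H2A genes 8 of 10 tested members did not overlap between the 5p duplex and control, or 7 of 9 with the copies HIST2H2AA3 and HIST2H2AA4 counted once. All were lower with the 5p duplex, as were 22.1% of all genes in this way. HIST2H2AA3 and HIST2H2AA4 were at 26.7 and 31.5 TPM with the 5p duplex, 41.9 and 33.6 TPM with the 3p.1 duplex and 48.1 and 38.0 TPM in control (log2 -0.54, limma adjusted p = 0.345). HIST1H2AC was at 26.2 and 34.3 TPM with the 5p duplex, 37.8 and 37.1 TPM with the 3p.1 duplex and 35.8 and 46.2 TPM in control (log2 -0.43, limma adjusted p = 0.523). HIST1H2AK ran the other way on average, at 1.31 and 3.83 TPM with the 5p duplex against 0.64 and 2.34 TPM in control, but its groups overlapped. HIST1H4H, at 19.3 and 30.4 TPM with the 5p duplex, 32.5 and 44.6 TPM with the 3p.1 duplex and 24.0 and 47.9 TPM in control, overlapped too.

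HIST1H1C overlapped between groups, and the H3 genes divided. HIST1H1C was at 231 and 138 TPM with the 5p duplex, 291 and 169 TPM with the 3p.1 duplex and 287 and 189 TPM in control. Replicate 1 exceeded replicate 2 in every group, by more than the group means differed (log2 -0.38 for the 5p duplex over control, SE 0.354). HIST1H3E was at 1.63 and 3.01 TPM with the 5p duplex, 5.16 and 2.57 TPM with the 3p.1 duplex and 3.34 and 3.15 TPM in control. HIST1H3D was at 1.12 and 1.00 TPM with the 5p duplex, 1.27 and 1.37 TPM with the 3p.1 duplex and 1.34 and 1.75 TPM in control. Both of these H3 genes were lower with the 5p duplex than in control without overlap, and the other 2 tested H3 genes overlapped. HIST1H3D shares 100% of its 100-base runs with the gene AL031777.3, so its values are not a separate measurement. HIST2H3D shares 51.3% of its runs with other genes. HIST1H3H was at 2.35 and 1.53 TPM with the 5p duplex, 2.77 and 2.63 TPM with the 3p.1 duplex and 1.99 and 3.19 TPM in control. HIST2H3D had replicates as far apart as 0.31 and 2.78 TPM within the 3p.1 duplex group, with 1.00 and 1.94 TPM for the 5p duplex and 1.28 and 1.25 TPM in control.

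**Figure D3:**
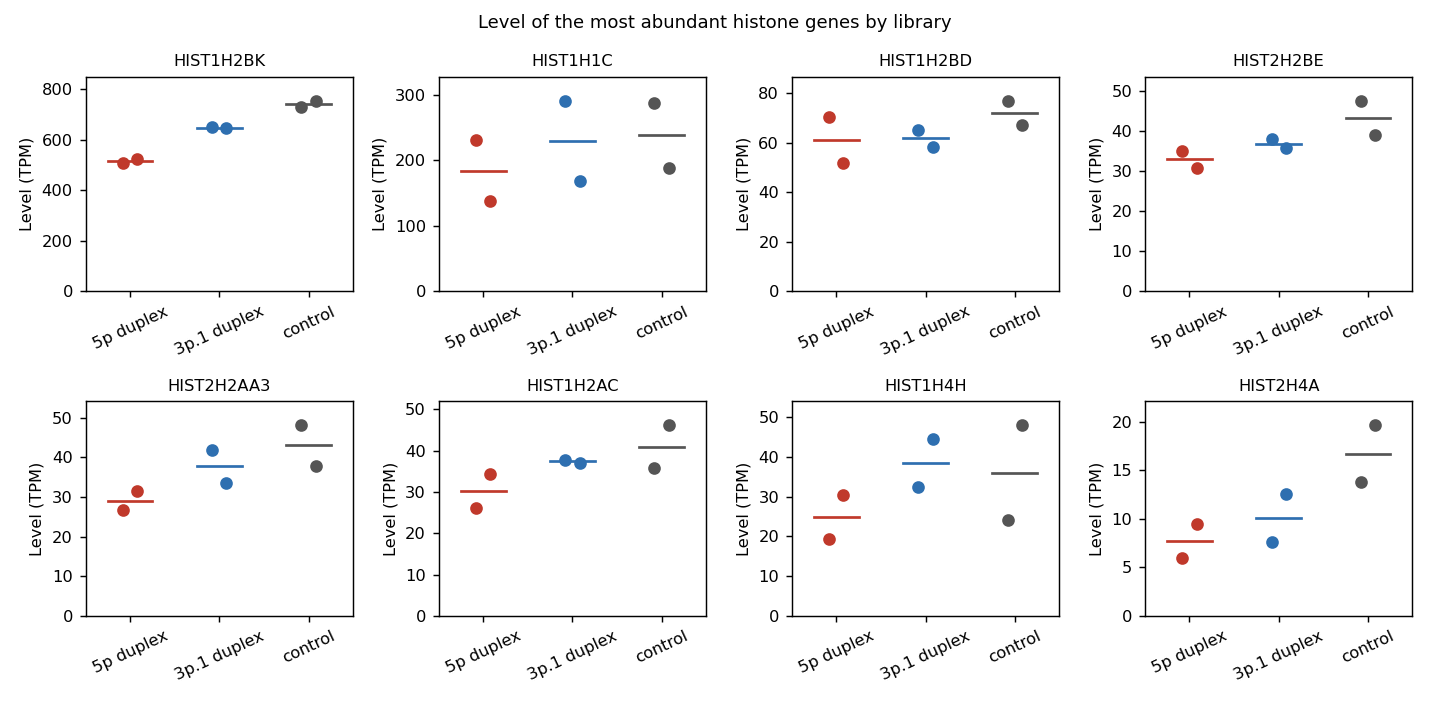
Level (vertical axis, TPM, starting at 0) of 8 abundant histone genes in each library (points) of the 5p duplex, 3p.1 duplex and control groups; horizontal lines are means of 2 libraries. HIST1H2BK separates the 3 groups (507 and 523, 651 and 645, 729 and 753 TPM), whereas HIST1H1C varies more between replicates than between groups.

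The second comparison set the 3p.1 duplex against control, and here most shares of the members were near those of all genes. None of the 33 was called, against 0.0149% of all genes (limma). Before adjustment, 2 members (6.06%) had a p under 0.05 in either direction, against 6.86% of all genes. Groups did not overlap in 9 members that were lower (27.3%, against 24.1% of genes; 8 of 31 with copies counted once) and in 1 that was higher (3.03%, against 12.1%). The log2 fold change was below 0 in 22 members (66.7%, against 59.0%), with a median of -0.12 for the members and -0.033 for all genes. By means over all 63 genes, 38 were lower and 24 higher with the 3p.1 duplex. Without control replicate 2, 18 of the 33 members were below 0, with a median of -0.035.

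The 2 members with an unadjusted p under 0.05 were H2B genes that differed in opposite directions. HIST1H2BK had a log2 fold change of -0.19 for the 3p.1 duplex over control (SE 0.0796, limma adjusted p = 0.726). HIST1H2BG was at 4.17 and 3.04 TPM with the 5p duplex, 6.62 and 7 TPM with the 3p.1 duplex and 5.26 and 4.59 TPM in control, which put the 3p.1 duplex highest (log2 0.40 over control, SE 0.161, limma adjusted p = 0.71). HIST2H2BE and HIST1H2BD were each lower than control without overlap, with a log2 fold change of -0.22 in both. HIST1H1C, HIST1H2AC and HIST1H4H overlapped between the 3p.1 duplex and control, at log2 -0.072, -0.12 and 0.16.

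The third comparison set the 5p duplex directly against the 3p.1 duplex, at the same time after transfection; doses are not given in the labels. None of the 33 members was called, against 0.433% of all genes (limma). Before adjustment, 6 members (18.2%) had a p under 0.05 and a lower level with the 5p duplex, against 4.96% of all genes. None had such a p and a higher level, against 4.39% of all genes. Groups did not overlap in 16 members (48.5%), all lower with the 5p duplex, against 19.4% of genes that were lower in this way. The log2 fold change was below 0 in 28 members (84.8%), against 48.7% of genes, and its median was -0.31 for the members and 0.0055 for all genes. With copies counted once, 6 of 31 had an unadjusted p under 0.05, 15 did not overlap and 26 were below 0. HIST1H2AI and HIST3H2BB are among these 6, at means of 0.6 and 0.58 TPM with the 5p duplex. Both passed the 1 TPM minimum through the groups where they were higher. The counts over tested members therefore describe them and support nothing. By means over all 63 genes, 43 were lower with the 5p duplex and 17 higher.

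Of these 6 members, 5 were H2B genes. HIST1H2BO stood furthest apart, with 1.19 ± 0.58 TPM for the 5p duplex and 4.37 ± 0.0636 TPM for the 3p.1 duplex (SD, n = 2 each). Its log2 fold change was -1.32 (SE 0.249, limma adjusted p = 0.149). HIST1H2BG averaged 3.60 ± 0.799 TPM with the 5p duplex and 6.81 ± 0.269 TPM with the 3p.1 duplex (log2 -0.77, limma adjusted p = 0.189). HIST3H2BB, which is divergent from HIST3H2A on chromosome 1 and passed the minimum only through the other 2 groups, was at 0.34 and 0.82 TPM with the 5p duplex, 1.10 and 2.00 TPM with the 3p.1 duplex and 1.16 and 1.55 TPM in control (log2 -0.68 for the 5p over the 3p.1 duplex, limma adjusted p = 0.465). HIST1H2BK averaged 515 ± 11.3 TPM with the 5p duplex and 648 ± 4.07 TPM with the 3p.1 duplex (log2 -0.33, SE 0.0796, limma adjusted p = 0.249). HIST1H2BD did not differ beyond its spread, at 61.2 ± 13.3 TPM with the 5p duplex and 61.8 ± 4.74 TPM with the 3p.1 duplex (log2 -0.029, SE 0.162).

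**Figure D4:**
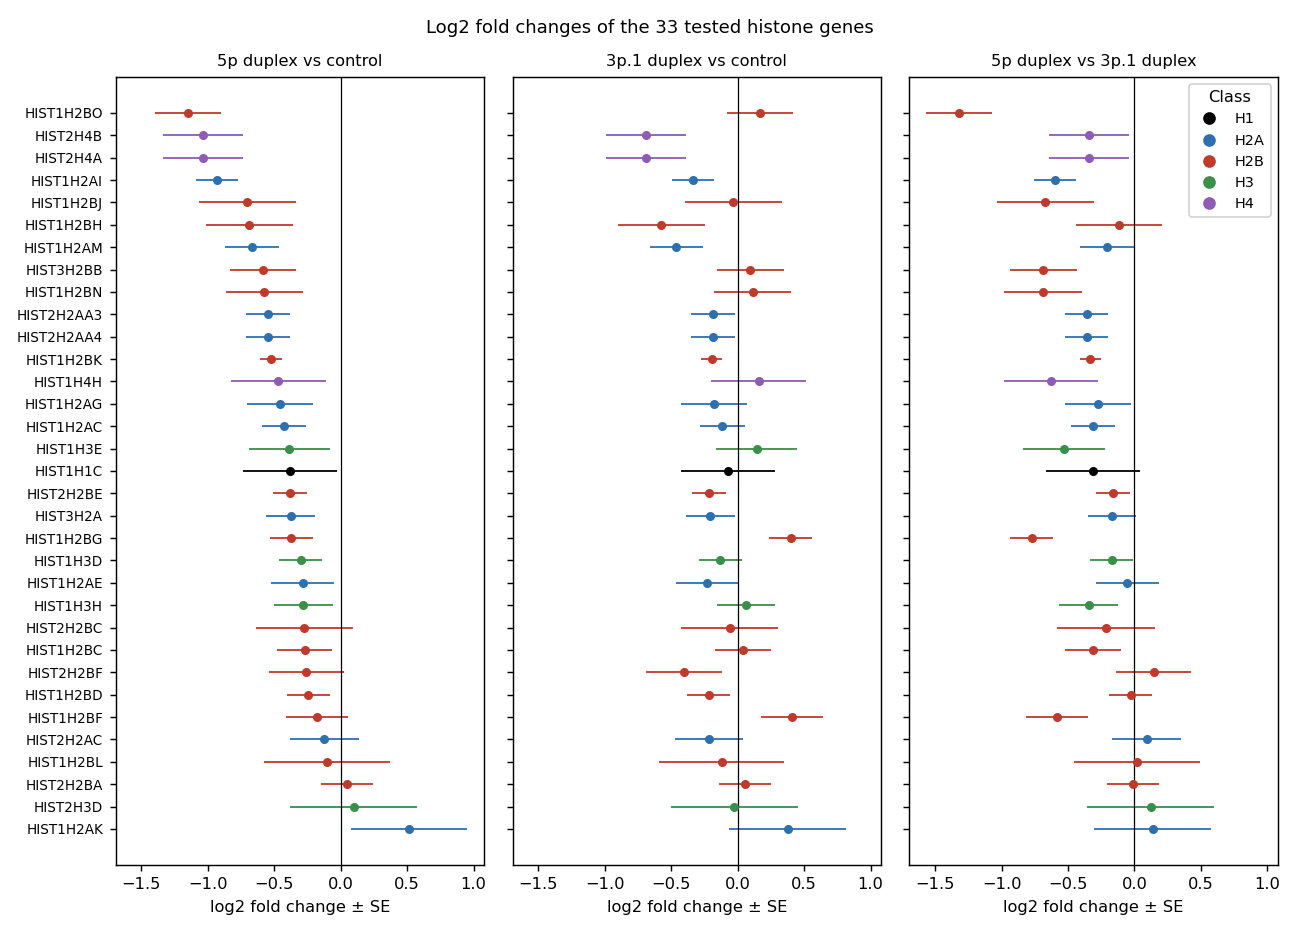
Log2 fold change of each of the 33 tested histone genes (points; horizontal axis, with standard error bars) for the 5p duplex over control, the 3p.1 duplex over control and the 5p over the 3p.1 duplex; colours give the class and genes are in the order of the left panel. Points lie left of 0 for 30, 22 and 28 of the 33 genes, and no gene passed the adjusted threshold in any panel.

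The median scatter between replicates was larger for the histone genes than for all tested genes, which were not matched to them in level. The median absolute log2 difference between the 2 replicates was 0.421 for the members against 0.152 for all tested genes with the 5p duplex, 0.306 against 0.129 with the 3p.1 duplex and 0.369 against 0.167 in control. Some members moved with replicate number, at shares not far from those of all genes. In all 3 groups 12 of the 33 members (36.4%, against 29% of all genes) were higher in replicate 2, HIST1H4H, HIST2H4A and HIST2H4B among them. Another 6 (18.2%, against 22.4%) were higher in replicate 1 in all 3 groups, including HIST1H1C, HIST1H2BD and HIST2H2BE. The labels tie replicate numbers to no batch.

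Many H2A and H2B genes lie head to head and share the DNA between them, so the pairs were compared as neighbours. The annotated starts of the gene models, on opposite strands, lay 124 to 331 bases apart in 10 pairs. Some models, those of HIST1H2BK and HIST1H2AH among them, are coding sequence alone, so their distance runs from the start codon. HIST1H2AH averaged 0.15 TPM beside the 634 TPM of HIST1H2BK, and HIST2H2AC 2.77 TPM beside the 37.7 TPM of HIST2H2BE. HIST1H2AC and HIST1H2BC were close to each other, at 36.2 and 30.0 TPM. HIST2H2AA4 (36.6 TPM), HIST1H2AE (8.27 TPM) and HIST3H2A (3.77 TPM) exceeded their H2B neighbours HIST2H2BC (8.4 TPM), HIST1H2BG (5.11 TPM) and HIST3H2BB (1.16 TPM). Sharing an intergenic region thus went with levels that ranged from near equal to far apart.

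**Figure D5:**
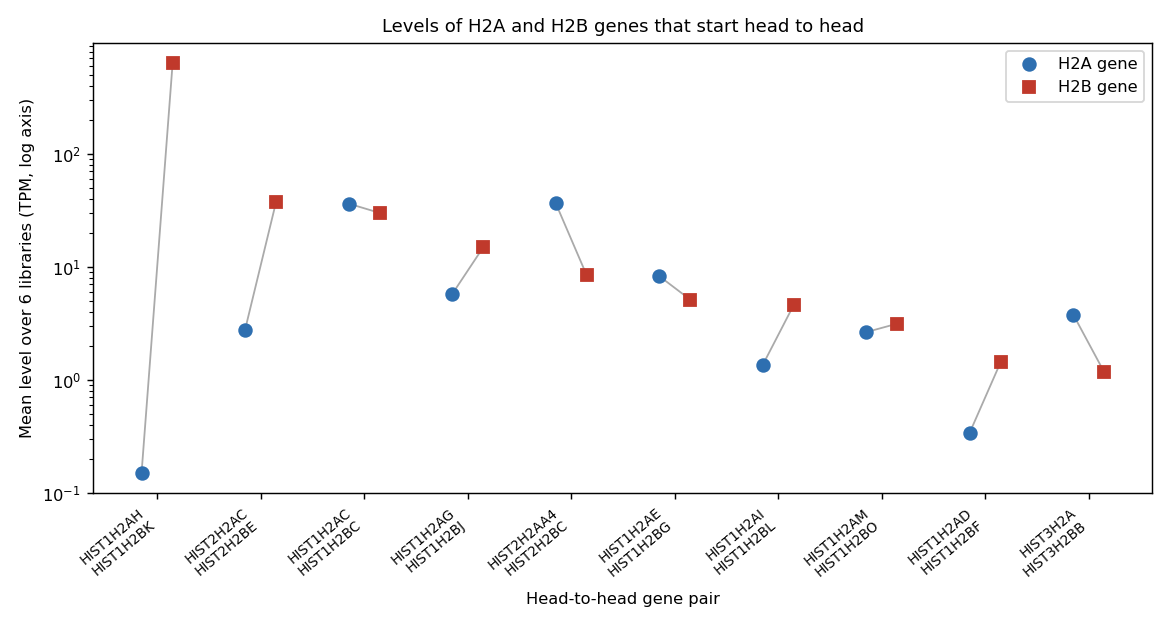
Mean level over the 6 libraries (vertical log axis, TPM) of the H2A gene (blue circles) and the H2B gene (red squares) of 10 pairs that start head to head, joined by lines. The widest gap is that of HIST1H2AH (0.15 TPM) and HIST1H2BK (634 TPM), and HIST1H2AC and HIST1H2BC lie close together.

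The octamer ATTTGCAT, the binding sequence of the factor Oct-1 (POU2F1) and a known element of H2B promoters, was sought in RefSeq promoters (GRCh38.p14, 250 bases before to 50 after each start) on both strands. Of the 63 members 52 were matched to a promoter; HIST1H2BK was not among them. The octamer was present in 10 of 13 H2B promoters, 10 of 15 H2A promoters and none of the 6 H1, 9 H3 and 9 H4 promoters, against 1.77% of all 35116 promoters. Several of these matches are 1 site counted in both promoters of a head-to-head pair, so the H2A and H2B counts are not separate. The sequences below, with the octamer or its reverse complement in capitals, are from pairs described above, to show that a divergent pair reads the same element on opposite strands.
HIST1H2BC (chr6:26124034-26124057, minus strand): catacctcATTTGCATagctctgc
HIST1H2AC (chr6:26124034-26124057, plus strand): gcagagctATGCAAATgaggtatg
HIST2H2BE (chr1:149886713-149886736, minus strand): gagccctaATTTGCATaaggtggt
HIST2H2AC (chr1:149886713-149886736, plus strand): accaccttATGCAAATtagggctc
HIST1H2BO (chr6:27893268-27893291, plus strand): tcctcttaATGCAAATgagctttc
HIST1H2AM (chr6:27893268-27893291, minus strand): gaaagctcATTTGCATtaagagga
The pair of HIST2H2BE and HIST2H2AC, far apart in level, and the pair of HIST1H2BC and HIST1H2AC, close in level, each held 1 shared octamer. The word TATAAA was found in 34 of the 52 promoters (11.5% of all), and CCAAT in 44 (34.6% of all), with CCAAT in 1 of 9 H4 promoters and in all 6 H1, 15 H2A, 13 H2B and 9 H3 promoters. A match describes the letters in the window and not binding.

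The transfected duplexes are named for the arms of MIR324, and the mature arms from RefSeq (GRCh38.p14) are shown because their seeds, bases 2 to 8 in capitals, set the words that were sought in the histone transcripts. The bases of the 3p.1 duplex itself are not stated in the labels, and the 3p arm listed by RefSeq may differ from it at its start.
hsa-miR-324-5p (chr17:7223343-7223364, minus strand): cGCAUCCCcuagggcauuggug
hsa-miR-324-3p (chr17:7223308-7223330, minus strand): cCCACUGCcccaggugcugcugg
The 5p word GGGATGC was in the annotated 3′UTR of 1 of the 34 members that have one, HIST1H2BN, against 10.7% of 19469 genes. Of the 4 annotated transcripts of HIST1H2BN only HIST1H2BN-203 held it, and the TPM given below is for the whole gene. The 3p word GCAGTGG was in 6 of the 34 (HIST1H2AG, HIST3H2A, HIST1H2BN, HIST3H2BB, HIST2H4A and HIST2H4B), against 26.8% of genes. The members' longest 3′UTRs are shorter, with a median of 672 nt against 1335 nt over all genes, and for the members whose models end at the stop codon no 3′UTR could be searched. The words in HIST1H2BN and in the nearer part of the HIST2H4A 3′UTR stand in the following surroundings, with the word in capitals.
HIST1H2BN, 5p word (chr6:27854794-27854800, plus strand): ctttctaaGGGATGCttctccct
HIST2H4A, 3p word (chr1:149833124-149833130, plus strand): taactttgGCAGTGGggcgacaa
HIST1H2BN was at 2.40 and 0.83 TPM with the 5p duplex, 3.18 and 2.86 TPM with the 3p.1 duplex and 3.01 and 2.44 TPM in control (log2 -0.57 for the 5p duplex over control, SE 0.291, limma adjusted p = 0.636). The 5p duplex libraries lay below both other groups, but the higher of them (2.40 TPM) was only just under the lower control library (2.44 TPM). The members with the lowest adjusted p in the 5p duplex comparison, HIST1H2BK and HIST1H2AI, held no GGGATGC in their annotated transcripts. The model of HIST1H2BK is coding sequence alone, and HIST1H2AI was below the 1 TPM minimum with the 5p duplex. Whether a duplex acted directly on any member was not tested.

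The genes that transcribe histone mRNA and form its end were measured beside the members. The list of 32, which includes NPAT, SLBP, the U7 snRNP proteins and the cleavage factors, was tested whole. None was called in any comparison (limma). In each, 2 genes had an unadjusted p under 0.05, against 1227, 919 and 1252 of all 13400 genes in the 3 comparisons. Its median log2 fold change was -0.022 for the 5p duplex over control, 0.046 for the 3p.1 duplex over control and -0.040 for the 5p over the 3p.1 duplex. SLBP, which binds the stem-loop, was at 122 and 104 TPM with the 5p duplex, 120.1 and 109 TPM with the 3p.1 duplex and 119 and 113 TPM in control, and all groups overlapped. NPAT was at 8.89 and 8.96 TPM with the 5p duplex, 9.25 and 9.97 TPM with the 3p.1 duplex and 7.89 and 10.8 TPM in control, also overlapping with control. LSM10, LSM11 and ZNF473, the U7 snRNP proteins, and CASP8AP2, a cofactor of NPAT, overlapped between every pair of groups. NELFA, a subunit of the pausing factor NELF, was at 9.93 ± 0.926 TPM with the 5p duplex, 13.8 ± 0.99 TPM with the 3p.1 duplex and 13.2 ± 1.75 TPM in control (SD, n = 2 each; log2 -0.38 for the 5p duplex over control, limma adjusted p = 0.463).

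Genes for decay of histone mRNA, which begins with uridylation of the end and trimming by ERI1, gave no call either (limma). In the 3 comparisons 2, 0 and 1 of them had an unadjusted p under 0.05, against 1227, 919 and 1252 of all 13400 genes. Of 25 genes on the list 24 were listed and tested, with median log2 fold changes of 0.034 for the 5p duplex over control, 0.018 for the 3p.1 duplex over control and -0.011 for the 5p over the 3p.1 duplex. ERI1 was at 48.8 and 46.0 TPM with the 5p duplex, 51.1 and 50.6 TPM with the 3p.1 duplex and 47.9 and 49.6 TPM in control. The uridylyl transferases TUT4 and TUT7, listed as ZCCHC11 and ZCCHC6, had log2 fold changes of 0.092 and 0.17 for the 5p duplex over control (SE 0.125 and 0.114). PNPT1, an RNA-degrading enzyme that interferon induces, was at 44.4 and 39.1 TPM with the 5p duplex, 45.7 and 45.2 TPM with the 3p.1 duplex and 49.3 and 98.1 TPM in control, so replicate 2 of control stood apart as it did for IFI6.

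Replication-independent histone genes, whose mRNAs are in general polyadenylated and not limited to S phase, served as a comparison within the same proteins. Of 21 genes 19 were listed and 11 tested. None was called (limma). An unadjusted p under 0.05 was found for 0, 0 and 1 of them in the 3 comparisons, against 1227, 919 and 1252 of all 13400 genes. Their summed level was 3698 and 3509 TPM with the 5p duplex, 3901 and 3733 TPM with the 3p.1 duplex and 3805 and 3638 TPM in control, with the 5p duplex and control overlapping. The median log2 fold change was -0.098 for the 5p duplex over control, 0.051 for the 3p.1 duplex over control and -0.11 for the 5p over the 3p.1 duplex. Below 0 were 8, 5 and 8 of the 11 in the 3 comparisons, against 57.3%, 59.0% and 48.7% of all genes. H2AFZ, an H2A variant, was at 1126 and 1104 TPM with the 5p duplex, 1261 and 1252 TPM with the 3p.1 duplex and 1101 and 1157 TPM in control, which put the 3p.1 duplex highest. H1FX, a linker histone variant, was at 57.4 ± 14.0 TPM with the 5p duplex, 77.1 ± 4.09 TPM with the 3p.1 duplex and 73.7 ± 9.29 TPM in control (SD, n = 2 each). H3F3B, which encodes a replication-independent H3, was at 607 and 548 TPM with the 5p duplex, 640 and 603 TPM with the 3p.1 duplex and 630 and 628 TPM in control. Its 5p duplex libraries lay below both control libraries and overlapped the 3p.1 duplex.

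S-phase genes were measured because the members are transcribed in that phase. All 36 were tested and none was called (limma). In the 3 comparisons 3, 3 and 7 had an unadjusted p under 0.05, against 1227, 919 and 1252 of all 13400 genes. For the 5p duplex over control 29 of 36 had a log2 fold change below 0 (against 57.3% of all genes), with a median of -0.062. For the 3p.1 duplex over control 11 were below 0 (against 59.0%), with a median of 0.095. For the 5p over the 3p.1 duplex 31 were below 0 (against 48.7%), with a median of -0.18. The list summed to 3654 and 3804 TPM with the 5p duplex, 4015 and 4218 TPM with the 3p.1 duplex and 3735 and 4097 TPM in control. CDT1, which loads the MCM helicase, was at 13.3 ± 2.15 TPM with the 5p duplex, 19.0 ± 0.983 TPM with the 3p.1 duplex and 19.6 ± 0.516 TPM in control (SD, n = 2 each; log2 -0.53 for the 5p duplex over control, SE 0.131, limma adjusted p = 0.22). MCM2, a helicase subunit, was at 78.9 ± 2.85 TPM with the 5p duplex, 99.0 ± 0.707 TPM with the 3p.1 duplex and 82.0 ± 3.1 TPM in control. UHRF1, which recruits the maintenance methyltransferase to new DNA, was at 89.1 ± 3.66 TPM with the 5p duplex, 107 ± 2.32 TPM with the 3p.1 duplex and 85.1 ± 1.57 TPM in control. The S-phase sums of each duplex overlapped those of control, and the 5p duplex lay below the 3p.1 duplex. The sums of all histone members did not overlap between groups. With HIST1H2BK left out, those of the 3p.1 duplex and control did. The part of S-phase genes in the histone levels was not tested.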

How the data were processed

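The authors deposited, for each of 6 libraries, gene symbols with TPM values; RSEM and GRCh38 are named per the submitters' processing notes, while the versions, the aligner and the gene annotation were not stated there. An unlisted symbol was taken as 0, and repeated symbols were summed. Values were analysed as log2(TPM + 1), a scale that understates changes of low genes, for the 13400 of 20979 symbols with a mean of at least 1 TPM. One group-means model over all 6 libraries was fitted with limma 3.58.1 in R 4.3.3 (variance trend, 3 residual and 3.38 prior degrees of freedom); two-sided p-values were Benjamini-Hochberg adjusted over all genes and called under 0.05. Every adjusted p and SE of a log2 fold change comes from this model, and the script was tested on simulated data. Sums over classes had no test.

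Named genes were members called, the 3 most abundant per class, the 3 largest rises and falls per comparison with an unadjusted p under 0.05 and separate groups, identical copies, the 2 smallest p per companion list and a fixed set of processing factors; genes of head-to-head pairs were named by position, and other members for their values. The members and lists were chosen with earlier results of these data known. Stem-loops, seed words and shared 100-base runs came from GENCODE 29 transcripts. Alternatives were another pseudocount, no filter, 2 scalings, fits to 2 groups, no trend, a replicate block, and each library left out.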

Additional observations from a re-analysis of the deposited data

How the results depend on the processing

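The summed histone level for the 5p duplex over control (log2 ratio -0.48) was -0.44 without its most abundant member and -0.38 as the median of tested members. For H2B it was -0.49, against -0.46 under median-ratio scaling, -0.38 without HIST1H2BK and -0.37 as a median; for the 3p.1 duplex over control -0.18, against -0.14, -0.13 and -0.031; and for the 5p over the 3p.1 duplex -0.31, against -0.25 without HIST1H2BK. The H1 ratio without HIST1H1C was -0.91 for the 5p duplex over control and -1.29 over the 3p.1 duplex, from genes all under 1 TPM. The H4 median for the 3p.1 duplex over control was -0.69, set by a pair of identical copies. Leaving out 1 library at a time kept the ratio of all members between -0.52 and -0.45, -0.21 and -0.10, and -0.38 and -0.27 in the 3 comparisons, while H1, H3 and, for the 3p.1 duplex over control, H4 (-0.56 to 0.15) crossed 0 in some; H4 ranged from -1.11 to -0.40 for the 5p duplex over control.

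Genes called for the 5p duplex over control numbered 62, but 9 with no filter, 11 with only the 2 groups, 33 without the variance trend and 7 to 128 with 1 library left out. For the 3p.1 duplex over control they numbered 2, but 0 with no filter (limma, 1444 at an unadjusted p under 0.05), 18 with only the 2 groups and 5 to 94 with 1 library left out. For the 5p over the 3p.1 duplex they numbered 58, but 5 with no filter, 19 with only the 2 groups, 5 without the trend and 7 to 26 with 1 library left out. No member was called under any of these. For the 5p duplex over control 7 to 12 of 33 members had an unadjusted p under 0.05 with the filter (7, against 1462 of 13400 genes, without control replicate 2) and 14 of 63, against 1758 of 20979 genes, with none, and 30 of 33 were below 0 in that comparison under both scalings.

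Replicate numbers were not taken as pairs, since the labels tie them to nothing and each comparison has only 2 pairs, although deviations of same-numbered libraries correlated at 0.265 to 0.383. With the replicate block 367, 30 and 278 genes were called in the 3 comparisons. It called 5 members for the 5p duplex over control, or 4 with copies counted once (adjusted p 0.0136 for HIST1H2BK, 0.0308 for HIST1H2AI, 0.0435 for HIST1H2AM, and 0.00746 for HIST2H4A and HIST2H4B) and 2 for the 5p over the 3p.1 duplex (0.0493 for HIST1H2BK and 0.0477 for HIST1H2BG). Of 1716 values of 44 named genes under alternatives 72 changed sign, none of them called; 20 concerned members, 19 by leaving out a library and 1, HIST2H3D, by quantile normalization. Among companion genes, PNPT1 was called only without control replicate 1 (log2 -1.22, adjusted p 0.0186, for the 5p duplex over control and -1.09, adjusted p 0.0308, for the 3p.1 duplex over control). Depth is unknown, and the least abundant members rest on values near the lowest listed, 0.01 TPM.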
